A study of Mus musculus with 16 samples.

Results

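The red cell membrane skeleton genes described here are 9 genes named by symbol in the count tables, namely Sptb, Ank1, Epb4.1, Epb4.2, Add1, Add2, Dmtn, Tmod1 and Mpp1, out of 46078 genes listed. All 9 were found once in each of 16 RNA-seq libraries. The libraries came from polychromatic erythroblasts (Poly-E) and orthochromatic erythroblasts (Ortho-E), sorted by CD44 and Ter119 from mouse bone marrow at steady state. Wild-type (Ypel4+/+) and Ypel4-null (Ypel4-/-) mice gave 4 libraries each in either population. The strain label, the same for both genotypes, opens with C57BL/6N-A<tm1Brd>, continues with the allele Ypel4<tm1a(EUCOMM)Wtsi> and ends with WtsiIeg. The Ypel4-/- mice were homozygous for this gene trap allele, which is carried by all their cells and not only by erythroid cells. No treatment was given, and age was not stated in the sources used here.

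The membrane skeleton is a protein mesh under the lipid bilayer that lets red cells deform in flow and spring back. Long spectrin tetramers are tied together at short actin filaments, and the mesh hangs from the membrane at ankyrin complexes around Band 3 and at junctional complexes around glycophorin C. Erythroblasts assemble it before they lose the nucleus, and inherited defects in several of its genes cause spherocytosis or elliptocytosis.

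Total counts ranged from 2670173 to 12451234 per library. Ypel4 was at 490 to 716 CPM, scaled for depth and with the TMM factors described below, in Ypel4+/+ Poly-E, against 9.90 to 23.6 in Ypel4-/- Poly-E. The Ortho-E libraries held 4432 to 5440 in Ypel4+/+ mice, against 175 to 224 in Ypel4-/- mice, so that all 16 libraries matched their genotype labels. The globin genes took 5.82% ± 0.47 of counts in Ypel4+/+ Poly-E and 12.5% ± 1.31 in Ypel4+/+ Ortho-E (SD, n = 4). The 100 most abundant genes took 31.0 to 34.2% of counts in Poly-E and 52.6 to 55.9% in Ortho-E.

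The direction of some changes between the populations depended on how the libraries were scaled. Levels are given as CPM for each kilobase of annotated exon, after TMM scaling, which assumes that most genes do not change. With TMM the median log2 fold change from Poly-E to Ortho-E over all genes tested was -0.19 in Ypel4+/+ and -0.09 in Ypel4-/-. With library totals in place of TMM it was -1.45 in Ypel4+/+ and -1.47 in Ypel4-/-. Fold changes of the members on both scales, and ratios within a library that need no scaling, are given below. In bulk libraries of sorted cells, fewer cells of a type and less RNA per cell cannot be told apart.

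Most members rose between Poly-E and Ortho-E under TMM scaling, by very unequal amounts. Epb4.1 rose most, 8.99-fold in Ypel4+/+ and 11.3-fold in Ypel4-/- cells. Mpp1 and Epb4.2 followed, while Sptb and Dmtn had the smallest values. In Ypel4+/+ 8 of 9 members were called higher and 0 lower (edgeR, adjusted p of 0.05 or less), where 26.4% of all 11747 genes tested were called higher and 32.1% lower. In Ypel4-/- all 9 were called higher, where 29.5% of 11973 genes were, with 31.5% called lower. The median log2 fold change of the 9 members was 1.22 in Ypel4+/+ and 1.45 in Ypel4-/-. With library totals 3 members were called higher and 3 lower in each genotype, against 10.4% of genes higher and 60.3% lower in Ypel4+/+ and 11.2% higher and 60.9% lower in Ypel4-/-. Epb4.1, Epb4.2 and Mpp1 were the members higher on both scales. Sptb, Ank1 and Dmtn were called lower with library totals, and Add1, Add2 and Tmod1 were not called with library totals. Each of the 9 members was above the median of all genes tested on both scales, where as many genes lie above the median as below. A change of scaling shifts all genes by about the same amount. The margin over the median is therefore almost the same on either scale by construction, and the second scale is no separate test of it. That margin ran from 0.48 for Sptb to 3.36 for Epb4.1 with TMM and from 0.46 for Sptb to 3.34 for Epb4.1 with library totals in Ypel4+/+ cells. Together the 9 genes took 1.75% ± 0.14 of counts in Ypel4+/+ Poly-E and 2.28% ± 0.10 in Ypel4+/+ Ortho-E, and in Ypel4-/- mice 1.70% ± 0.15 and 2.37% ± 0.10 (SD, n = 4). This joint share does not describe each member. With library totals Epb4.1 rose 3.71-fold in Ypel4+/+ and 4.23-fold in Ypel4-/-, while Sptb, Ank1 and Dmtn fell.

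**Figure D1:**
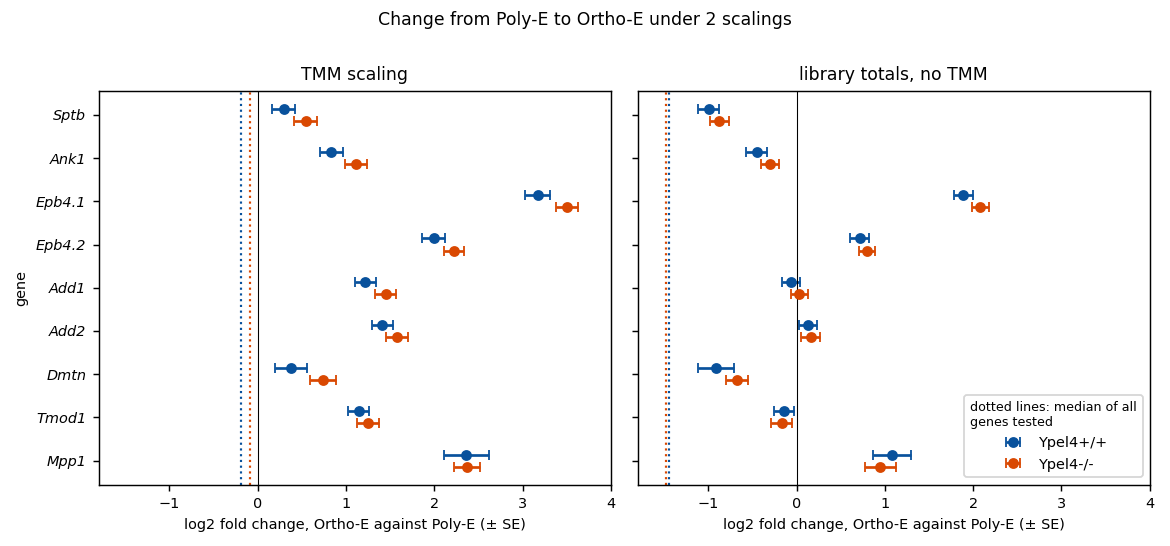
Log2 fold change of each member from Poly-E to Ortho-E (x axis, ± SE, 4 against 4 libraries) for Ypel4+/+ in blue and Ypel4-/- in orange, with TMM scaling on the left and library totals on the right. Dotted lines mark the median of all genes tested, which moves from -0.19 to -1.45 in Ypel4+/+. The 9 members keep the same rank, since the scaling shifts all genes by about the same amount.

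The sequences before the transcription start are shown for Epb4.1, Epb4.2 and Mpp1, which rose strongly, and for Sptb, which had the smallest change with TMM. They are RefSeq promoters of GRCm38.p6, all on the minus strand and written 5′ to 3′, cut where an annotated transcript of the gene begins. Capitals mark matches, on either strand, to AGATAA, the core bound by GATA factors, and to CCNCNCCCN, a CACCC box of the kind bound by KLF factors, and overlapping matches run together. The stretch for Epb4.1 lies at chr4:132075322-132075563, where Gm10300 overlaps it on the other strand, that for Epb4.2 at chr2:121037073-121037127, that for Mpp1 at chrX:75131017-75131266 and that for Sptb at chr12:76710548-76710797.
Epb4.1: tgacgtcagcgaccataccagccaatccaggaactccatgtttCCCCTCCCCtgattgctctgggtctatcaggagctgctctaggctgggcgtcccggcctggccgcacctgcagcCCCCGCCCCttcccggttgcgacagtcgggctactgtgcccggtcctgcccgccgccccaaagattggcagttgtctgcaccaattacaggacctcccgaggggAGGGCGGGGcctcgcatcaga
Epb4.2: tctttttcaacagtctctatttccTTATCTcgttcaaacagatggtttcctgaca
Mpp1: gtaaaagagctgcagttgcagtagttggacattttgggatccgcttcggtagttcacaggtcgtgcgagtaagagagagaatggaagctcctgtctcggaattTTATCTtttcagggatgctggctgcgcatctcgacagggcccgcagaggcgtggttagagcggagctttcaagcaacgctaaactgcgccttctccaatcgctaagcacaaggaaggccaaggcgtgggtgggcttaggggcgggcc
Sptb: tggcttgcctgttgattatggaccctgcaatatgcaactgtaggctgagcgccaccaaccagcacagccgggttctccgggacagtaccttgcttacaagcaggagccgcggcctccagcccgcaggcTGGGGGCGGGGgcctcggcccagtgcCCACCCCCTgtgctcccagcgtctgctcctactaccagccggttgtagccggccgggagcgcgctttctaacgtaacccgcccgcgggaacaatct

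Of the 9 members 7 had a RefSeq promoter in the table used here, with 9 promoters in all since Epb4.1 had 3, of which the outermost is shown, and the 250 bases before the start were searched on both strands. AGATAA was present in 2 of the 7 genes, Epb4.2 and Mpp1, and in 9.97% of 32536 promoter stretches of this length, counted singly. By promoter it was in 2 of 9, CCNCNCCCN in 6 of 9 and CANNTG in 7 of 9. By gene CCNCNCCCN was present in 5 of 7, namely Sptb, Epb4.1, Add1, Add2 and Tmod1, and in 46.1% of all stretches. CANNTG, the E-box, was present in 6 of 7 and in 66.2% of all stretches, with Tmod1 the gene lacking it. A match describes the letters of the window and not a bound site.

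Sptb (ENSMUSG00000021061, chr12:76580488-76710547, minus strand) encodes the beta chain of erythroid spectrin, the long filament of the mesh. Its level in the 4 replicates was 237, 223, 294 and 294 in Ypel4+/+ Poly-E, against 293, 282, 317 and 360 in Ypel4+/+ Ortho-E. The Ypel4-/- libraries gave 219, 233, 268 and 296 for Poly-E, against 247, 348, 342 and 385 for Ortho-E. The populations overlapped in both genotypes, although every replicate was higher in its Ortho-E than in its Poly-E library. The log2 fold change was 0.29 ± 0.13 (SE) in Ypel4+/+ with an adjusted p of 0.0499, and 0.54 ± 0.13 in Ypel4-/- with an adjusted p of 0.000454. The Ypel4+/+ call was lost when Ortho-E replicate 1, 3 or 4 was left out, with adjusted p of 0.0521, 0.0975 and 0.153, and in a fit of all 16 libraries, with 0.0941. It was kept with the replicate number as a block (adjusted p 0.00146) and in DESeq2 (adjusted p 0.000736). With library totals Sptb fell by 0.99 in Ypel4+/+ and by 0.88 in Ypel4-/- on the log2 scale.

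Ank1 (ENSMUSG00000031543, chr8:22974844-23150497, plus strand) encodes ankyrin, which ties beta spectrin to Band 3. Its level was 127, 111, 158 and 149 in Ypel4+/+ Poly-E, against 225, 206, 253 and 263 in Ypel4+/+ Ortho-E. The Ypel4-/- libraries gave 112, 119, 138 and 151 for Poly-E, against 202, 257, 258 and 287 for Ortho-E. All Ortho-E libraries lay above all Poly-E libraries. Its log2 fold change was 0.83 ± 0.13 in Ypel4+/+ and 1.11 ± 0.12 in Ypel4-/- (adjusted p 3.19e-06 and 1.46e-09). With library totals Ank1 fell by 0.45 in Ypel4+/+ and by 0.30 in Ypel4-/-, so its direction depends on the scaling. The gene body also holds the microRNA gene Mir486 on the same strand and the antisense gene Gm15816. Where they share bases with Ank1, their reads cannot be told apart from those of Ank1, for Gm15816 since counting ignored strand.

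Epb4.2 (ENSMUSG00000023216, chr2:121017891-121037072, minus strand) encodes a protein of the ankyrin complex that binds Band 3 and resembles transglutaminases without being an enzyme. Its level was 322, 247, 245 and 230 in Ypel4+/+ Poly-E, against 1104, 1035, 917 and 1004 in Ypel4+/+ Ortho-E. The Ypel4-/- libraries gave 215, 251, 228 and 224 for Poly-E, against 900.2, 944, 966 and 983 for Ortho-E. The lowest Ortho-E library was well above the highest Poly-E library in both genotypes. The log2 fold change was 1.99 ± 0.13 in Ypel4+/+ and 2.22 ± 0.11 in Ypel4-/- (adjusted p 4.45e-13 and 4.11e-18), and with library totals 0.71 and 0.80. Epb4.2 lies 36.3 Mb from Ypel4 on the same chromosome.

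Epb4.1 (ENSMUSG00000028906, chr4:131923413-132075321, minus strand) encodes the protein that locks spectrin onto actin at the junctional complex. In Ypel4+/+ Poly-E its level was 246, 171, 202 and 187, and in Ypel4+/+ Ortho-E it was 1766, 1594, 1818 and 1902. The Ypel4-/- libraries gave 147, 174, 209 and 184 for Poly-E, against 1482, 1829, 1927 and 1949 for Ortho-E. This was the widest separation of the populations among the 9 members. Its log2 fold change was 3.17 ± 0.14 in Ypel4+/+ and 3.50 ± 0.13 in Ypel4-/- (adjusted p 7.86e-16 and 3.02e-21), and with library totals 1.89 and 2.08. Epb4.1 went from 13.1% ± 1.42 of the summed level of the 9 members in Ypel4+/+ Poly-E to 36.4% ± 1.59 in Ypel4+/+ Ortho-E. Sptb went from 17.0% ± 1.96 to 6.43% ± 0.53 of the same sum.

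Mpp1 (ENSMUSG00000031402, chrX:75109733-75131016, minus strand) encodes a membrane-associated guanylate kinase that joins the Epb4.1 product to glycophorin C. Its level was 100.2, 71.6, 52.9 and 50.1 in Ypel4+/+ Poly-E, against 430.2, 392, 261 and 294 in Ypel4+/+ Ortho-E. The Ypel4-/- libraries gave 67.2, 83.1, 58.5 and 49.3 for Poly-E, against 362, 253, 274 and 280 for Ortho-E. Mpp1 had a mean of 68.7 ± 23.0 (SD, n = 4) in Ypel4+/+ Poly-E, a wide spread relative to its mean, but the populations did not overlap. The log2 fold change was 2.36 ± 0.25 in Ypel4+/+ and 2.37 ± 0.14 in Ypel4-/- (adjusted p 1.66e-05 and 1.30e-14), and with library totals 1.08 and 0.95. The last exon overlaps the end of Dkc1 on the other strand.

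The adducins cap the growing end of the short actin filaments and recruit spectrin to them. Add1 (ENSMUSG00000029106, chr5:34573664-34632308, plus strand) was at 129, 115, 128 and 125 in Ypel4+/+ Poly-E, against 285, 264, 282 and 299.5 in Ypel4+/+ Ortho-E. The Ypel4-/- libraries gave Add1 values of 108, 117, 123 and 130.1 for Poly-E, against 242, 309, 295 and 317 for Ortho-E. Add2 (ENSMUSG00000030000, chr6:86078084-86119555, plus strand) encodes the beta chain, which is restricted to blood and brain more than the alpha chain. Its level was 169, 133, 160.5 and 147 in Ypel4+/+ Poly-E, against 407, 374, 395 and 407 in Ypel4+/+ Ortho-E. The Ypel4-/- libraries gave Add2 values of 123, 138, 162 and 145 for Poly-E, against 322, 340.0, 417 and 432 for Ortho-E. No Ortho-E value of either gene overlapped a Poly-E value. The log2 fold change of Add1 was 1.22 ± 0.11 in Ypel4+/+ and 1.45 ± 0.12 in Ypel4-/- (adjusted p 5.16e-10 and 9.83e-13). That of Add2 was 1.41 ± 0.12 and 1.58 ± 0.12 (adjusted p 6.33e-11 and 2.59e-13). With library totals Add1 was at -0.06 and 0.03 and Add2 at 0.13 and 0.16, and none of these values passed the test.

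Dmtn (ENSMUSG00000022099, chr14:70602184-70636048, minus strand) encodes dematin, which bundles actin at the junctional complex. Its level was 182, 193, 289 and 276 in Ypel4+/+ Poly-E, against 246, 228, 349 and 368 in Ypel4+/+ Ortho-E. The Ypel4-/- libraries gave 181, 182, 240 and 276 for Poly-E, against 246, 328, 344 and 395 for Ortho-E. The populations overlapped in both genotypes, while each replicate was higher in Ortho-E than in Poly-E. In Ypel4+/+ the log2 fold change of 0.38 ± 0.18 did not pass the test (adjusted p 0.0873), and it did with the replicate number as a block (adjusted p 4.05e-05) and in DESeq2 (adjusted p 0.0171). It also passed without Ypel4+/+ Ortho-E replicate 1 or 2 or without Ypel4+/+ Poly-E replicate 3 or 4 (adjusted p 0.0439, 0.0238, 0.00573 and 0.00993). It did not pass without any 1 of the other 4 libraries (adjusted p up to 0.221) or in a fit of all 16 libraries (adjusted p 0.167). In Ypel4-/- it was 0.74 ± 0.15 (adjusted p 0.000166). With library totals Dmtn fell by 0.91 and 0.68 on the log2 scale in Ypel4+/+ and Ypel4-/- cells.

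Tmod1 (ENSMUSG00000028328, chr4:46038935-46116032, plus strand) encodes tropomodulin, the cap of the slow end of the short actin filaments. Its level was 108.65, 96.6, 92.2 and 87.3 in Ypel4+/+ Poly-E, against 237, 213, 183 and 196 in Ypel4+/+ Ortho-E. The Ypel4-/- libraries gave 93.7, 105, 79.3 and 90.7 for Poly-E, against 202, 210.3, 166 and 198 for Ortho-E. The populations did not overlap. Its log2 fold change was 1.14 ± 0.12 in Ypel4+/+ and 1.25 ± 0.12 in Ypel4-/- (adjusted p 6.21e-09 and 8.58e-11), and with library totals Tmod1 was at -0.14 and -0.17 without passing the test. The end of Tmod1 overlaps Tstd2 on the other strand.

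**Figure D2:**
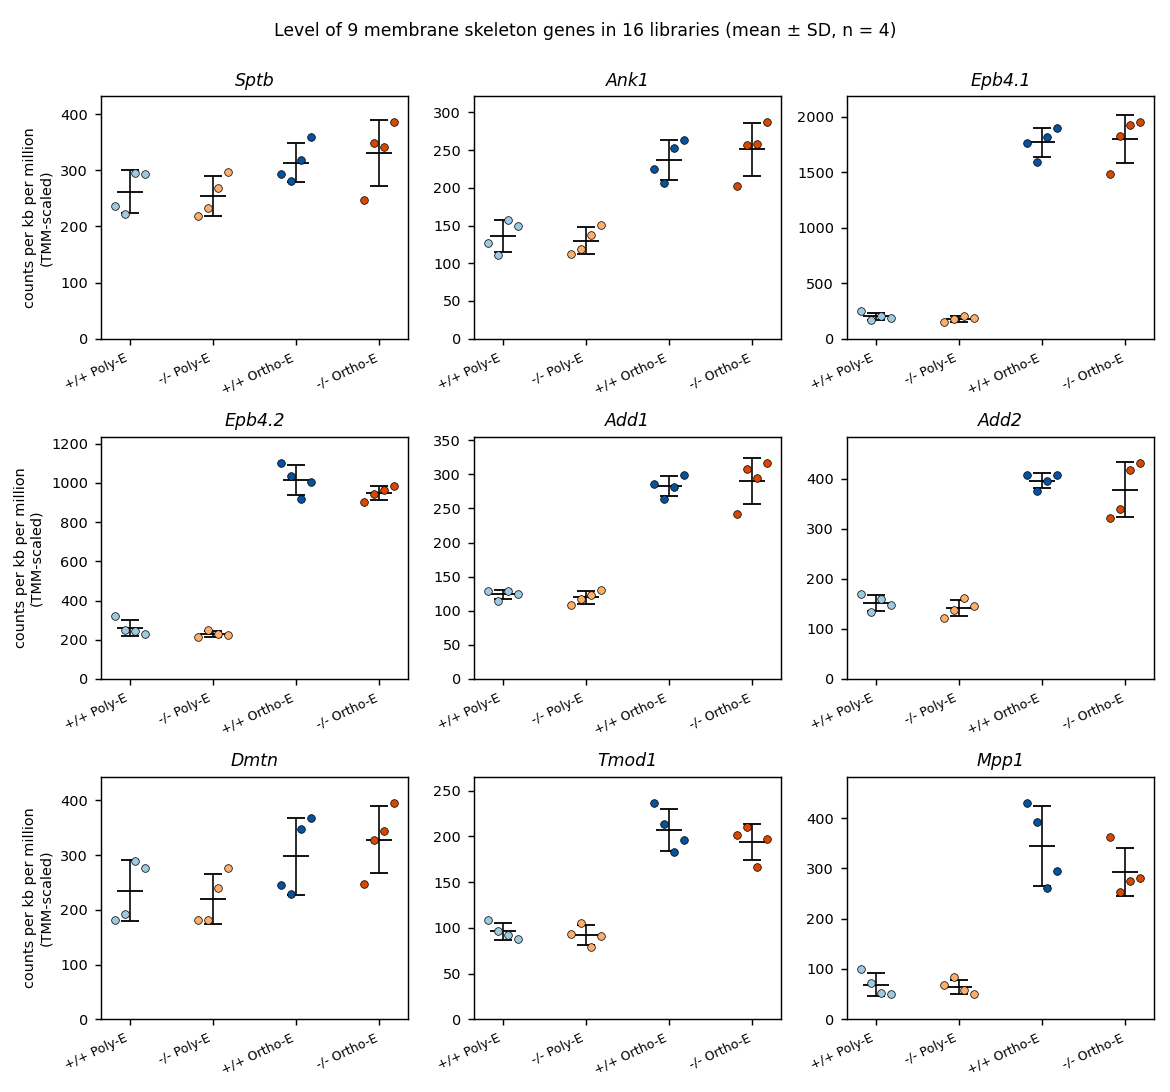
Level of each member (y axis, TMM-scaled CPM per kilobase, from 0) in every library of the 4 groups, with the mean and SD (n = 4). With this scaling Ortho-E lies clear of Poly-E for 7 genes and overlaps it for Sptb and Dmtn, and the genotypes overlap for all 9. The share of all genes whose populations do not overlap was not computed. Of all genes tested 26.4% were called higher and 32.1% lower in Ypel4+/+, and 29.5% and 31.5% in Ypel4-/-.

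The order of the members by level changed between the populations. In Ypel4+/+ Poly-E it ran from Sptb (262 ± 37.7, SD, n = 4) and Epb4.2 (261 ± 41.5) through Dmtn (235 ± 55.3), Epb4.1 (202 ± 32.4), Add2 (152 ± 15.7), Ank1 (136 ± 21.2), Add1 (124 ± 6.42) and Tmod1 (96.2 ± 9.14) to Mpp1 (68.7 ± 23.0). Neighbours overlapped in their range except Epb4.1 with Add2 and Add1 with Tmod1. In Ypel4+/+ Ortho-E Epb4.1 (1770.2 ± 130.3) and Epb4.2 (1015 ± 77.5) stood apart from each other and from all the rest. Below them came Add2 (396 ± 15.4), Mpp1 (344 ± 79.8), Sptb (313 ± 34.6), Dmtn (298 ± 70.7), Add1 (283 ± 14.5), Ank1 (237 ± 26.0) and Tmod1 (207 ± 23.2), overlapping as neighbours apart from Add1 with Ank1. The Ypel4-/- order was the same in Poly-E. In Ypel4-/- Ortho-E the only change was that Mpp1 (292 ± 48.03) came after Sptb (331 ± 58.7) and Dmtn (328 ± 61.8), with all 3 overlapping. The whole list spanned 3.81-fold in Ypel4+/+ Poly-E and 8.54-fold in Ypel4+/+ Ortho-E. These levels rest on merged exons of all annotated isoforms, from 3119 bases for Add2 to 13527 for Ank1, so the order between genes also depends on the annotation.

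Ratios of counts per kilobase within a library are free of scaling, and several moved between the populations. Beta spectrin to ankyrin, Sptb to Ank1, was 1.87, 2.00, 1.87 and 1.97 in Ypel4+/+ Poly-E, against 1.30, 1.36, 1.26 and 1.37 in Ypel4+/+ Ortho-E. The Ypel4-/- libraries gave 1.95, 1.96, 1.95 and 1.96 for Poly-E, against 1.22, 1.35, 1.33 and 1.34 for Ortho-E. The replicates lay close together, and the populations did not overlap in either genotype. Sptb was thus lower relative to Ank1 in Ortho-E than in Poly-E.

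Epb4.1 to Sptb went from 0.783 ± 0.18 in Ypel4+/+ Poly-E to 5.68 ± 0.30 in Ypel4+/+ Ortho-E. In Ypel4-/- cells the means were 0.704 ± 0.072 and 5.49 ± 0.41. Within the ankyrin complex Epb4.2 to Ank1 went from 1.96 ± 0.50 to 4.34 ± 0.72 in Ypel4+/+ cells and, in their Ypel4-/- counterparts, from 1.79 ± 0.28 to 3.83 ± 0.44. Both ratios were higher in every Ortho-E library than in any Poly-E library of the same genotype. Add2 to Add1 was 1.22 ± 0.072 in Ypel4+/+ Poly-E and 1.40 ± 0.029 in Ypel4+/+ Ortho-E, without overlap. In Ypel4-/- it was 1.19 ± 0.090 and 1.30 ± 0.14, and 1 Ortho-E library, replicate 2 at 1.10, lay below all of Poly-E.

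Ratios of members to related genes, which also had counts in these libraries, differed widely. Tmod1 to Tmod3 went from 37.9 ± 6.34 to 72.7 ± 25.8 in Ypel4+/+ cells and, in their Ypel4-/- counterparts, from 38.7 ± 7.67 to 70.9 ± 14.2. Tmod3, the widely expressed tropomodulin, had 15 to 161 counts per library. Add1 to Add3 went from 107 ± 11.6 to 51.5 ± 13.7 in Ypel4+/+ cells and, in their Ypel4-/- counterparts, from 94.1 ± 15.7 to 53.6 ± 15.6. Sptb to Sptbn1, the non-erythroid beta spectrin, lay between 862 and 9619 over the 16 libraries, and the 1 to 24 Sptbn1 counts per library leave it a large counting error. Mpp1 to Mpp2, a pair added after its values were seen, went from 1.69 ± 0.88 to 10.5 ± 3.88 in Ypel4+/+ cells. In Ypel4-/- cells it was 1.61 ± 0.48 in Poly-E, with replicate 4 at 0.997, and 8.91 ± 2.82 in Ortho-E.

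**Figure D3:**
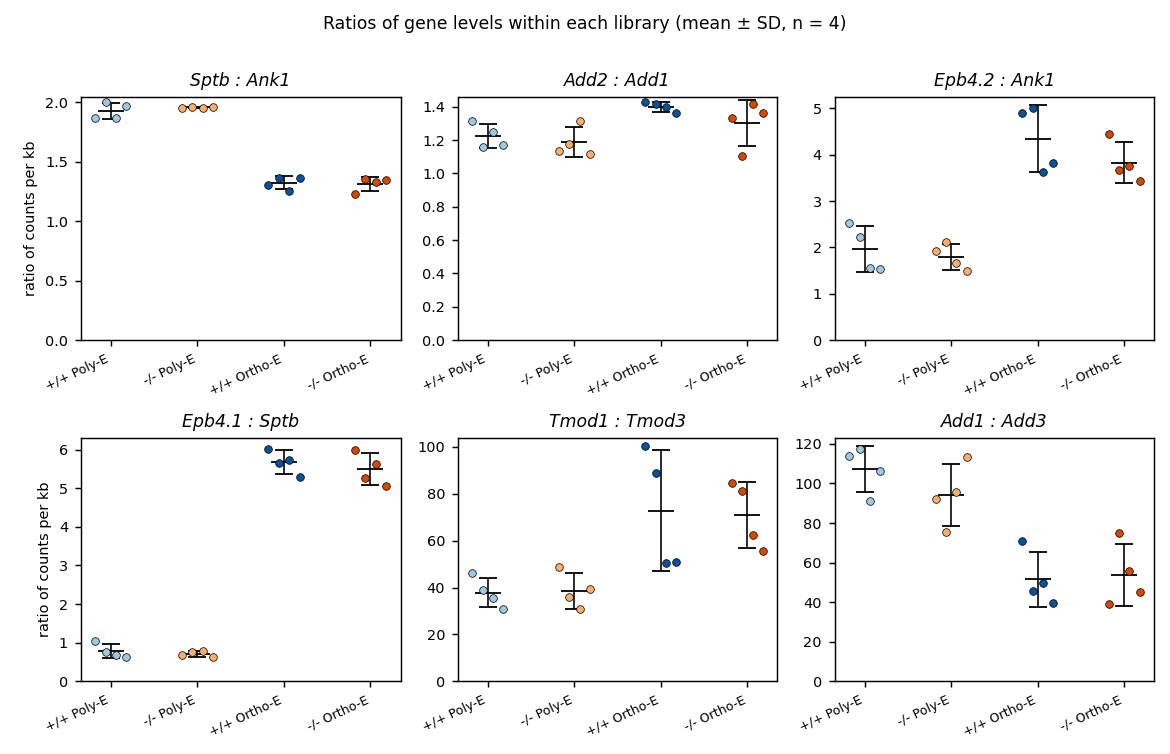
Ratio of counts per kilobase of 6 gene pairs (y axis, from 0) in each library of the 4 groups, with the mean and SD (n = 4). Sptb to Ank1 and Add1 to Add3 are lower in Ortho-E, and Epb4.1 to Sptb, Epb4.2 to Ank1 and Tmod1 to Tmod3 are higher, in both genotypes.

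The other genes of the skeleton and its membrane anchors were called in both directions. Of 20 such genes 19 were tested in Ypel4+/+, with 11 higher, 5 lower and 3 not called, and a median log2 fold change of 0.51, where 26.4% of all genes were called higher and 32.1% lower. In Ypel4-/- all 20 were tested, with 12 higher, 4 lower and 4 not called, and a median of 0.84. The shares of all genes in Ypel4-/- were 29.5% and 31.5%. With library totals 5 were called higher and 11 lower in each genotype. Of all genes 10.4% were then called higher and 60.3% lower in Ypel4+/+, and 11.2% and 60.9% in Ypel4-/-. Genes with high levels included Slc4a1, which encodes Band 3, and the blood group genes Rhd and Kel. Slc4a1 went from 3302 ± 212 to 9862 ± 706 in Ypel4+/+ cells, a log2 fold change of 1.61 ± 0.12 (adjusted p 4.98e-12) that lay between those of Ank1 and Epb4.2. The largest change was that of Tpm1, a tropomyosin that lies along the short actin filaments, from 14.7 ± 3.24 to 107 ± 9.58 in Ypel4+/+ (log2 fold change 2.90 ± 0.15, adjusted p 4.92e-15). In Ypel4-/- cells Tpm1 went from 14.4 ± 3.80 to 111 ± 14.9. Kel and Rhag rose by 1.73 ± 0.13 and 1.71 ± 0.13 in Ypel4+/+ cells, and with library totals Slc4a1, Kel and Rhag were still higher, by 0.33, 0.45 and 0.43. The 5 genes called lower in Ypel4+/+, named after their values were seen, were Actb, Actg1, Tpm3, Myh9 and Flot2. Myh9, a non-muscle myosin heavy chain, fell by 2.05 and the actin genes Actb and Actg1 by 0.99 and 1.56 on the log2 scale. The 4 of these other than Flot2 were also the ones called lower in Ypel4-/-.

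The list of relatives of the members held 24 genes. The highest were Mpp2, whose mean level of 38.2 over the 16 libraries came near that of Mpp1 in some Poly-E libraries, Tgm2 with 9.21, Add3 with 3.48 and Tmod3 with 2.72. Of the 15 tested in Ypel4+/+ 3 were called higher, 4 lower and 8 in neither direction, with a median log2 fold change of 0.48. The shares over all genes were 26.4% higher and 32.1% lower. Of the 15 tested in Ypel4-/- 4 were called higher, 2 lower and 9 in neither direction, with a median of 0.63. All genes there gave 29.5% higher and 31.5% lower. With library totals 1 was called higher and 6 lower in Ypel4+/+, where 10.4% of all genes were higher and 60.3% lower. In Ypel4-/- 2 were then called higher and 7 lower, against 11.2% and 60.9% of all genes. Add3 went from 1.17 ± 0.18 to 5.77 ± 1.46 in Ypel4+/+ (log2 fold change 2.32 ± 0.20, adjusted p 1.02e-10), Sptbn4 rose by 2.10 ± 0.42, Mpp6 fell by 2.89 and Tgm2 fell by 1.13. In Ypel4-/- cells Sptbn4 rose by 2.85 ± 0.44, Mpp4 by 2.41 ± 0.70 and Add3 by 2.33 ± 0.18, and Mpp6 fell by 1.67. Sptbn4 had 1 to 25 counts per library, Mpp4 0 to 10 and Mpp6 0 to 43, so their changes rest on few counts. Mpp4 was not called in Ypel4+/+ (adjusted p 0.0703). With library totals Sptbn4 in Ypel4+/+ and Mpp4 in Ypel4-/- were not called (adjusted p 0.0793 and 0.175).

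No member passed the test between the genotypes. In Poly-E 0 of 9 passed the test in edgeR and 0 in DESeq2, 0 had an unadjusted p under 0.05, and 0.00807% of 12395 genes were called, with 271 genes at an unadjusted p under 0.05. All 9 values lay below 0 with TMM, from -0.18 ± 0.11 (SE) for Epb4.2 and -0.18 ± 0.12 for Epb4.1 to -0.04 ± 0.12 for Sptb. With library totals 8 of 9 did, and Sptb was at 0.01. The median over all genes tested was 0.00087 with TMM and 0.051 with library totals, and 0 of 9 members lay above it on either scale. With TMM 14 of 19 other skeleton and anchor genes and 12 of 17 relatives also lay below 0. The share of all genes below 0 was not computed. Epb4.2 had a mean of 230 ± 15.2 in Ypel4-/- Poly-E and 261 ± 41.5 in Ypel4+/+ Poly-E (SD, n = 4), and the genotypes overlapped. The remaining values were -0.07 ± 0.12 for Ank1, -0.05 ± 0.10 for Add1, -0.10 ± 0.11 for Add2, -0.09 ± 0.17 for Dmtn, -0.06 ± 0.11 for Tmod1 and -0.09 ± 0.24 for Mpp1. The adjusted p was 1.00 for each (lowest unadjusted p 0.121).

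In Ortho-E, the population with the most Ypel4 in wild-type mice, again 0 of 9 members passed the test in edgeR and 0 in DESeq2, 0 had an unadjusted p under 0.05, and 0.0285% of 10521 genes were called, with 387 at an unadjusted p under 0.05. Of the 9, 5 lay above 0 and 4 below. Dmtn was at 0.16 ± 0.14, Ank1 at 0.10 ± 0.09, Sptb at 0.10 ± 0.10, Add1 at 0.06 ± 0.09 and Epb4.1 at 0.04 ± 0.09. Add2 was at -0.05 ± 0.09, Tmod1 at -0.07 ± 0.11, Epb4.2 at -0.08 ± 0.09 and Mpp1 at -0.21 ± 0.20. The adjusted p was 0.996 for each (lowest unadjusted p 0.269). Standard errors were 0.09 to 0.20 in Ortho-E and 0.10 to 0.24 in Poly-E. With the adjustment over all genes tested, differences of that size were not detectable, and larger ones could also be missed.

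Whether the change from Poly-E to Ortho-E differed between the genotypes was tested as an interaction. It was called for 0 of 9 members in edgeR and 0 in DESeq2, with 0 at an unadjusted p under 0.05, and for 0.0% of 13318 genes, of which 364 had an unadjusted p under 0.05 (DESeq2 called 1 gene, no member). Its value ran from -0.15 ± 0.33 for Mpp1 to 0.24 ± 0.28 for Dmtn on the log2 scale. The Ypel4+/+ and Ypel4-/- libraries enter both the genotype and the population comparisons, so these values are not independent of those above.

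**Figure D4:**
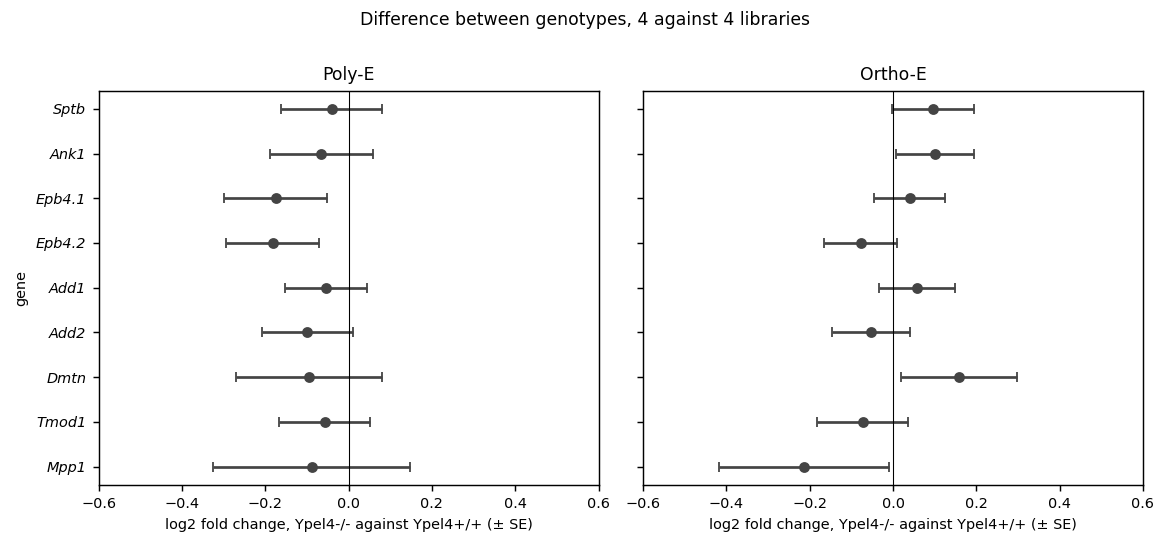
Log2 fold change of each member in Ypel4-/- against Ypel4+/+ cells (x axis, ± SE, 4 against 4 libraries) in Poly-E on the left and Ortho-E on the right. The values run from -0.18 to -0.04 in Poly-E and from -0.21 to 0.16 in Ortho-E, and none passed the test.

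For several members the replicates of a group differed by more than the genotypes did, in a recurring pattern. The mean log2 level of replicates 3 and 4 minus that of replicates 1 and 2 was 0.37 to 0.60 for Dmtn, 0.26 to 0.37 for Ank1 and 0.23 to 0.36 for Sptb over the 4 groups. It was -0.72 to -0.13 for Mpp1 and -0.25 to -0.19 for Tmod1, opposite in sign to the values above. Both replicates 3 and 4 lay above both replicates 1 and 2 in 4 of 4 groups for Dmtn and Ank1 and below them in 4 of 4 groups for Tmod1. The same difference lay between -0.25 and 0.08 for Epb4.2 and between 0.06 and 0.17 for Add1. The labels give no batch to these replicate numbers, and their source was not tested. A term for replicates 1 and 2 against 3 and 4 gave 9 of 9 members called higher from Poly-E to Ortho-E in either genotype, Dmtn in Ypel4+/+ being the call gained, and 0 of 9 called between the genotypes in either population.

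**Figure D5:**
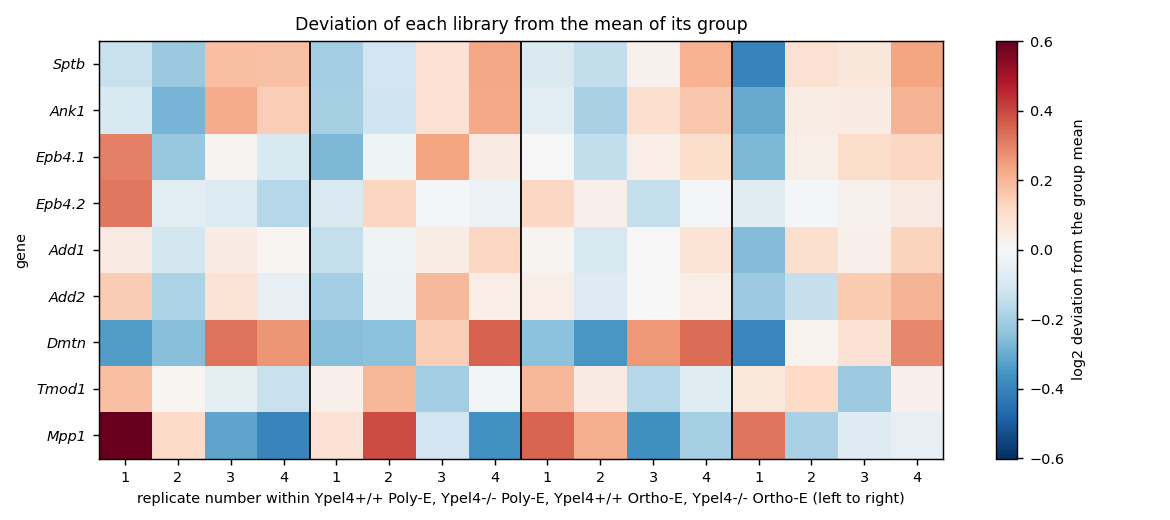
Log2 deviation of each member (rows) from the mean of its group in each of 16 libraries (columns, in groups of 4 replicates), red above and blue below the mean. Dmtn, Sptb and Ank1 tend to run low in replicates 1 and 2 and high in 3 and 4, Ypel4-/- Ortho-E replicate 2 being an exception in all 3, and Mpp1 runs the other way in 3 of the 4 groups.

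Over the 16 libraries the log2 level of each member was matched with 4835 genes of at least 10 CPM. The libraries form the separate clusters Poly-E and Ortho-E, so these Pearson correlations, which share that step, are given as a description. The nearest gene was Mxd1 for Epb4.2 (0.999), Tpcn1 for Add1 (0.998), Gabarapl2 for Mpp1 (0.997), Zfand5 for Add2 (0.996), Ptp4a3 for Ank1 (0.994) and Rab30 for Tmod1 (0.993). Sptb and Dmtn shared the nearest gene Tsc22d4 (0.976 and 0.977) and were each other's nearest member (0.958). Spearman's rho for these nearest genes ran from 0.935 to 0.991. The least alike members were Dmtn and Mpp1 (0.429).

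Markers of other bone marrow cells were low in all groups. The TMM-scaled sum of 9 granulocyte markers was 1.95 to 5.26 CPM in Poly-E, against 4.08 to 20.5 in Ortho-E, with Elane at 0 in 3 of the 4 groups. That of 7 macrophage markers was 1.94 to 4.86 and 5.25 to 12.3, and all 7 had a count in each group. The 6 megakaryocyte markers summed to 27.7 to 36.8 and 91.3 to 113, led by Itga2b, with Pf4 at 0 in both Ortho-E groups. The 7 lymphocyte markers summed to 11.2 to 25.3 and 18.9 to 39.6, with Cd3e at 0 in every group. In Ortho-E these sums did not overlap between the genotypes, at 18.9 to 24.6 in Ypel4+/+ and 31.8 to 39.6 in Ypel4-/-, and their part in the genotype comparison was not tested. The marker sums were mostly higher in Ortho-E with TMM, as the members were. TMM factors were 1.449 to 1.643 in Poly-E and 0.6063 to 0.7256 in Ortho-E, which raises Ortho-E values against library totals. The sums were not computed with library totals, so their direction may depend on the scaling. Their part in the result was not tested. All 10 erythroid markers were present in each group, led by Hbb-bs.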

How the data were processed

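Total RNA of sorted Poly-E and Ortho-E was sequenced as unstranded poly(A) libraries. According to the deposited file headers, the authors counted read pairs per gene with featureCounts 1.6.4 on exons, ignoring strand, and deposited raw counts, 1 table per library, on GRCm38. The labels also name DESeq2.

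Genes whose counts summed to 10 or more in a fit were tested with edgeR 4.0.16 (quasi-likelihood F test, robust, TMM, Benjamini-Hochberg over all genes, threshold 0.05) in R 4.3.3, each comparison on its own 8 libraries, the interaction on all 16. The SE is the log2 fold change divided by the square root of F. Levels use 1 TMM scaling of all 16 libraries, so ratios of levels differ slightly from the fold changes. DESeq2 1.42.0, other scalings and filters, a replicate block and each library left out were alternatives. The fits were tested on simulated data, where false calls took a larger share than the threshold sets, so calls near it are weak. Depth limits counting precision, and p-values measure the spread between 4 mice per group. The main fits treat all libraries as independent, so the populations enter as if they came from separate mice.

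Poly-E and Ortho-E tables of 1 replicate share a further number in their headers, read as the mouse. Deviations of same-numbered libraries correlated at 0.487 to 0.651 in Ypel4+/+ and 0.0859 to 0.565 in Ypel4-/- between the populations, over 4835 genes, and between genotypes at 0.233 to 0.642 in Poly-E and -0.135 to 0.339 in Ortho-E. A library correlated better with another number than with its own in 1 of 4 pairs between the Ypel4-/- populations, 3 of 4 between the Poly-E genotypes and 2 of 4 between the Ortho-E genotypes. The mouse pairs the populations, a pairing that the main fits left out and the replicate block took in. Between genotypes the numbers mark different mice, and the block is only an alternative.

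The members and lists were chosen with earlier results of these data known. Beyond the members, the text names the 4 partners and 4 relatives with the highest mean level, up to 4 of each with the largest called change per comparison, and for each member its nearest gene. A few genes that these rules name are not reported here.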

Additional observations from a re-analysis of the deposited data

How the results depend on the processing

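The scaling was the choice that mattered. With library totals 3 members were called higher and 3 lower in Ypel4+/+ and in Ypel4-/- from Poly-E to Ortho-E. Their log2 fold change was then -0.99 for Sptb, -0.45 for Ank1, -0.063 for Add1, -0.91 for Dmtn and -0.14 for Tmod1 in Ypel4+/+, and -0.88 for Sptb, -0.30 for Ank1, -0.68 for Dmtn and -0.17 for Tmod1 in Ypel4-/-. Between genotypes in Poly-E Sptb was then at 0.0084, where the median of all genes was 0.051. The other alternatives called 7 to 9 members higher in Ypel4+/+ and 9 in Ypel4-/-. The replicate block called 9 in Ypel4+/+ and 9 in Ypel4-/-, and between genotypes it changed no member's call. In Poly-E that block did not call Ypel4 either (adjusted p 0.286), so it is no check of the members there.

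Over all genes, 1 was called between genotypes in Poly-E, against 2 with DESeq2, 3 with all 16 libraries, 4 without a filter, 3 with the term for replicates 1 and 2 against 3 and 4, and 4 with the replicate block, among them not Ypel4 (adjusted p 0.286). In Ortho-E 3 were called, against 5 without a filter and 15 with the replicate block, and in the interaction 0, against 1 with DESeq2 and 1 with the replicate block. The cause was not tested. Without 1 library these counts were 1 to 2 in Poly-E (2 without Ypel4-/- replicate 1) and 0 to 1 in the interaction (1 without Ypel4+/+ Ortho-E replicate 1).

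Without 1 library the sign of small genotype differences changed. In Poly-E these ran from -0.12 to 0.023 for Sptb, -0.15 to 0.0040 for Ank1, -0.22 to 0.013 for Dmtn, -0.12 to 0.011 for Tmod1 and -0.23 to 0.15 for Mpp1. In Ortho-E they ran from -0.00055 to 0.099 for Epb4.1 and -0.14 to 0.011 for Tmod1. The interaction ran from -0.035 to 0.16 for Add2, -0.090 to 0.064 for Tmod1 and -0.30 to 0.037 for Mpp1. None of these was called.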
